A study of Mus musculus with 10 samples.

Results

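Long-chain fatty acids are the main fuel of the adult heart. They are released from lipoproteins, taken up across the sarcolemma, joined to coenzyme A (CoA), carried into mitochondria as carnitine esters and shortened there in repeated cycles of dehydrogenation, hydration, a second dehydrogenation and thiolysis. The electrons of the first dehydrogenation pass to the respiratory chain through electron transfer flavoprotein, and malonyl-CoA limits the entry into mitochondria. The genes described here are 34 genes of this route, chosen by name for their known role. They cover 8 steps, from uptake to malonyl-CoA control, among 45882 gene IDs listed, and 34 of 34 passed the filter on low values together with 11358 genes in all.

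RNA was measured in 10 libraries of left ventricular cardiac myocytes, isolated from C57BL/6 mice that each carry their own number. They comprised 4 libraries of CTCF knockout mice, 3 libraries of mice after TAC (transverse aortic constriction, an operation that narrows the aorta and so raises the pressure load on the left ventricle) and 3 control libraries. CTCF is a DNA-binding zinc finger protein that takes part in shaping chromatin loops. The Cre driver or other means of the knockout, the age of the mice, the time after surgery, the genotype of the TAC mice and any operation on the control mice are not given in the sources used here, and strain, tissue and cell type are labelled alike in all 3 groups. Levels are FPKM, a read level normalized for transcript length and library size, summed by gene and rescaled between libraries. They can therefore be compared between genes per length. Fold changes are differences of log2(FPKM + 1), which understate the change of low genes, with adjusted p from limma over all tested genes and a call at an adjusted p under 0.05.

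Ctcf, the targeted gene (ENSMUSG00000005698), lay at 2.90, 4.01, 2.60 and 4.42 FPKM in CTCF knockout libraries, at 7.32, 5.70 and 5.22 FPKM in TAC libraries and at 8.81, 8.34 and 6.80 FPKM in control libraries. Every knockout library lay below every other library. Pearson r of log2 levels, taken across genes (which are not independent replicates), was 0.971 to 0.988 for library pairs within a group and 0.942 to 0.980 for pairs from different groups. The number of reads per library is not given in the sources used here, so depth is unknown, and the median coverage per FPKM ran from 3.90 to 6.09. Xist and Y-linked RNA marked 3 females and 1 male among the CTCF knockout mice, 1 female and 2 males among the TAC mice and 2 females and 1 male among the controls.

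The labelled cell type was checked with 12 cardiac myocyte genes, which summed to between 34758 and 45771 FPKM in CTCF knockout, between 37334 and 47238 FPKM in TAC and between 42907 and 47978 FPKM in control libraries. Of these 12 genes, 5 fell in the knockout (Myh6, Tnni3, Ryr2, Atp2a2 and Pln), and in TAC 3 fell and Csrp3 rose. Among all genes tested, 10.2% were called lower and 10.6% higher in the knockout, and 7.37% lower and 8.08% higher in TAC. Markers of other cell types were also measured. The 10 fibroblast markers summed to 150.1 to 231.6 FPKM in CTCF knockout, 184.2 to 213.5 FPKM in TAC and 77.7 to 145.5 FPKM in control libraries, with 4 of 9 tested markers higher in each comparison with control. The 12 endothelial markers summed to 176.2 to 284.8 FPKM in CTCF knockout, 245.7 to 276.2 FPKM in TAC and 189.1 to 252.9 FPKM in control libraries. Of these 12, 3 were called higher and 1 lower in the knockout, and 0 were called in TAC. The 10 macrophage and leukocyte markers summed to 72.0 to 118.7 FPKM in CTCF knockout, 98.2 to 116.3 FPKM in TAC and 64.5 to 87.8 FPKM in control libraries. In the knockout 3 of these 10 were called higher and 1 lower, and in TAC 2 were called higher and 0 lower. For the 9 smooth muscle and pericyte markers the sums were 74.0 to 95.5 FPKM in CTCF knockout, 95.9 to 102.8 FPKM in TAC and 151.2 to 160.7 FPKM in control libraries. Of the 8 tested, 2 were called lower and 1 higher in each comparison with control. The 5 erythroid markers summed to 130.04 to 632.3 FPKM in CTCF knockout, 951.5 to 1676 FPKM in TAC and 287.9 to 1198 FPKM in control libraries, and 0 of them were called against control. Between CTCF knockout and TAC, 3 of these 5 were called lower in the knockout, against 1.70% of all genes tested. The 7 adipocyte markers summed to at most 0.187 FPKM in CTCF knockout, 0.334 FPKM in TAC and 0.232 FPKM in control libraries, with Lep listed at 0 in all of them. The 20 liver transcripts summed to 2.08 to 6.19 FPKM in CTCF knockout, 3.26 to 5.39 FPKM in TAC and 11.2 to 16.9 FPKM in control libraries. Of the 3 tested, 1 was called lower in the knockout and 2 in TAC. The part of these cells in the results on fatty acid genes was not tested. In RNA of many cells, fewer myocytes and less RNA per myocyte cannot be told apart.

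The fatty acid genes were among the abundant transcripts of the control myocytes. Of the 34 genes, 20 had a control mean of at least 100 FPKM and 5 lay under 10 FPKM, with the control mean highest for the fatty acid binding protein Fabp3 (2397 FPKM) and lowest for the acyl-CoA synthetase Acsl5 (1.72 FPKM). Summed over the 34 genes, the level was 7574, 7159, 7586 and 6042 FPKM in CTCF knockout libraries, 8145, 9575 and 10071 FPKM in TAC libraries and 10485, 11623 and 10931 FPKM in control libraries. Every knockout library lay below every TAC library, and every TAC library below every control library. In summed FPKM this order held only after rescaling. Without it, knockout replicates 1 and 3 (8270 and 8313 FPKM) lay above TAC replicate 1 (8026 FPKM). TAC replicate 3 (10574 FPKM) then lay above control replicate 1 (9563 FPKM). The means were 7090 ± 727 FPKM (SD, n = 4) in CTCF knockout, 9264 ± 1000 FPKM (SD, n = 3) in TAC and 11013 ± 573 FPKM (SD, n = 3) in control libraries, so that CTCF knockout stood at 64.4% and TAC at 84.1% of the control mean. Without rescaling, CTCF knockout stood at 70.6% and TAC at 88.0%. As a share of the FPKM of all nuclear genes kept, the 34 genes held 1.67 ± 0.0849% in CTCF knockout, 2.13 ± 0.118% in TAC and 2.37 ± 0.104% in control libraries (SD, n = 4, 3 and 3). This share, taken without rescaling, ran from 1.54% to 1.71% in CTCF knockout, 2.00% to 2.22% in TAC and 2.26% to 2.45% in control libraries. In it the groups kept the same order without overlap.

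**Figure D1:**
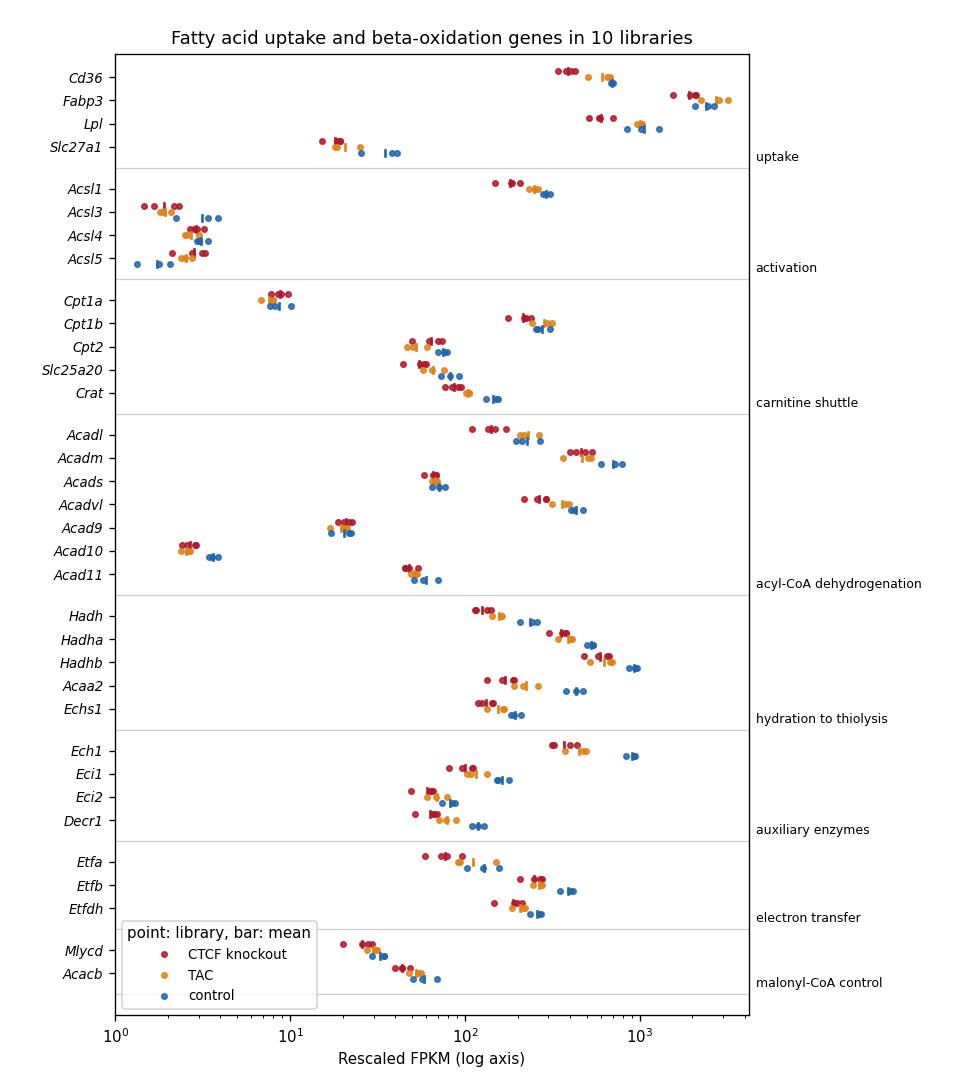
Level of each of the 34 genes in each library, as rescaled FPKM on a log axis, with genes grouped by step. Points are libraries and short bars are group means, with CTCF knockout (4 libraries) above TAC (3) and control (3). Most knockout points lie left of the control points of the same gene, while Cpt1a, Acads and Acad9 overlap in all groups and Acsl5 lies further right in CTCF knockout and TAC than in control.

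The comparison of CTCF knockout with control asks how RNA of this route differs in myocytes with less Ctcf. In the knockout 24 of the 34 genes fell, 1 rose and 9 did not pass the test. Among all 11358 genes tested, 10.2% were called lower and 10.6% higher. Every knockout library lay below every control library for 24 of the 34 genes, against 16.0% of all genes tested. The median log2 fold change was -0.59 over the 34 genes and -0.01 over all genes tested, and 31 of the 34 changes were negative. All members fell in 3 steps: the 5 genes of hydration to thiolysis, the 4 auxiliary enzymes and the 3 electron transfer genes. In the carnitine shuttle 2 of 5 fell and in acyl-CoA dehydrogenation 4 of 7. With no rescaling between libraries 10 of the calls in the knockout ended (Acacb, Acad10, Acadm, Acsl3, Echs1, Eci2, Etfdh, Hadha, Hadhb and Slc25a20, adjusted p from 0.0560 to 0.196). With no filter on low values 7 ended (Acacb, Acadm, Acsl3, Acsl5, Eci2, Etfa and Etfdh, 0.0613 to 0.107), with quantile normalization Acacb and Etfa (0.0720 to 0.0870), and in a fit of the 2 groups alone Acsl3 (0.0683). With the replicate number as a block 8 ended (Acacb, Acad10, Acadm, Acsl3, Acsl5, Eci2, Etfa and Etfdh, limma adjusted p from 0.0517 to 0.104).

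In TAC against control, 13 of the 34 genes fell and 21 did not pass the test, while among all genes tested 7.37% were called lower and 8.08% higher. By limma none of the 34 rose, and at an unadjusted p under 0.05 there were 17 lower and 1 higher. The share of all genes at this unadjusted threshold was not computed, so these 2 counts have no baseline. Every TAC library lay below every control library for 19 of the 34 genes, against 15.7% of all genes tested. The median log2 fold change was -0.29 over the 34 genes and 0.00 over all genes tested. CTCF knockout and TAC were set against the same 3 control libraries. The calls of these comparisons are therefore not independent, and the values of both are given side by side with each gene. With no rescaling between libraries 10 of the 13 calls in TAC ended (Acad10, Acadm, Cpt2, Crat, Decr1, Eci1, Etfb, Hadh, Hadha and Hadhb, adjusted p from 0.0597 to 0.147), while with quantile normalization 18 genes were called lower. The TAC calls of Acadm, Cpt2, Eci1, Hadha and Hadhb also ended with no filter on low values, with sex as a covariate and in a fit of the 2 groups alone (adjusted p from 0.0516 to 0.104). That of Acad10 ended in the last 2 of these settings, and that of Slc27a1 in the first and the last. The Acad10 call also ended with the replicate number as a block (limma adjusted p = 0.0636).

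Between CTCF knockout and TAC directly, 3 of the 34 genes were lower in the knockout (Cd36, Lpl and Acadl), and 1.70% of all genes tested were called lower there and 1.58% higher. By limma 0 of the 34 were higher, and at an unadjusted p under 0.05 there were 12 lower and 0 higher, again without a share of all genes at that threshold. Each of these 3 calls ended when some single libraries were left out, and their values are given with the genes. All 3 also ended with no filter on low values (limma adjusted p from 0.0610 to 0.119) and with the replicate number as a block (0.0634 to 0.0938). The call of Cd36 ended with no rescaling (0.0759), and those of Lpl and Acadl with quantile normalization (0.0913 to 0.121) and with sex as a covariate (0.0531 to 0.0931).

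**Figure D2:**
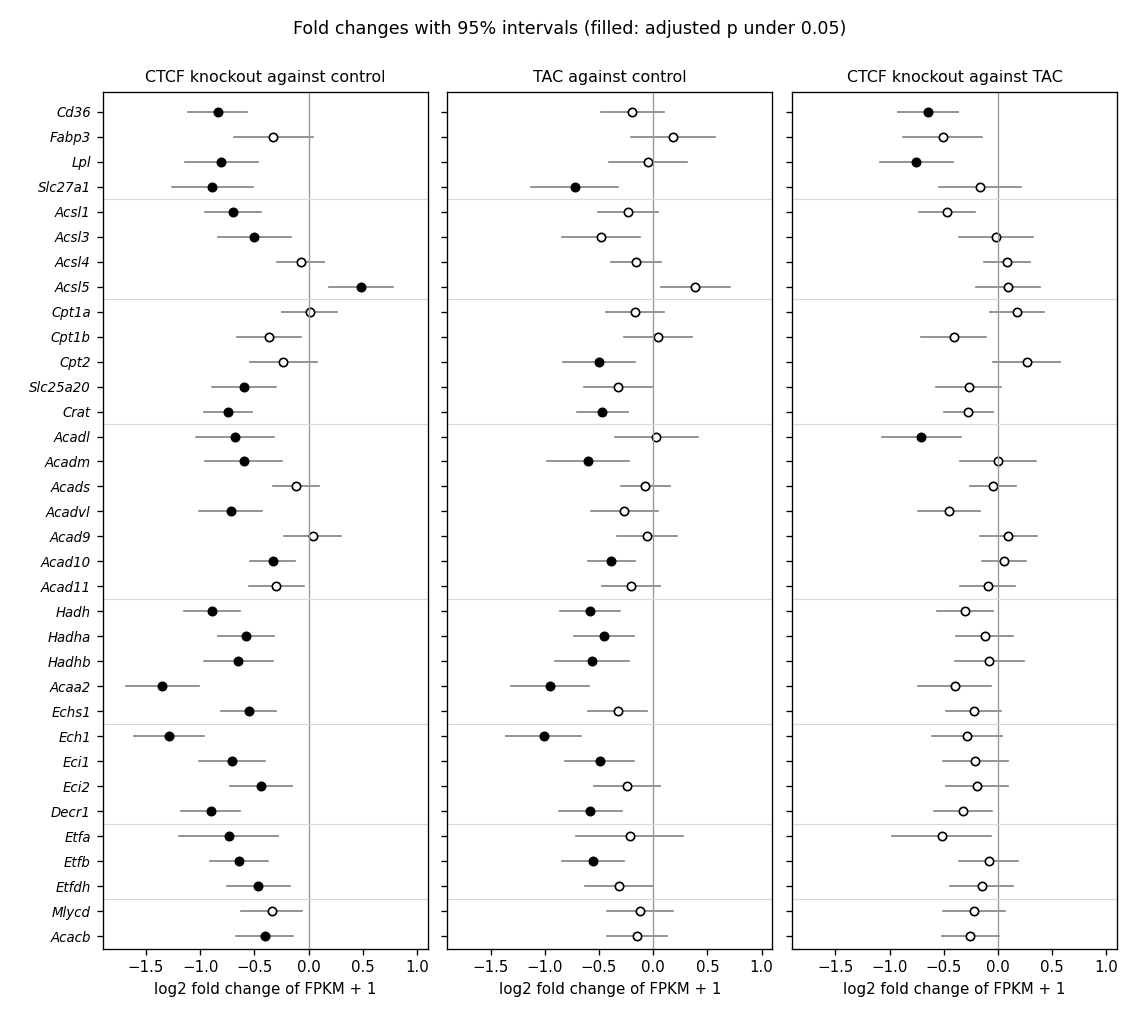
log2 fold change of FPKM + 1 for each gene, with its 95% interval, for CTCF knockout against control, TAC against control and CTCF knockout against TAC. Filled circles mark an adjusted p under 0.05, which holds for 25, 13 and 3 genes, and grey lines part the 8 steps. Acaa2 and Ech1 lie furthest left in both comparisons with control.

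Uptake was the step whose summed level differed most between CTCF knockout and TAC as a percentage of control. Its 4 genes summed to 69.9% of the control mean in the knockout and to 104.7% in TAC. Cd36 encodes the fatty acid translocase of the plasma membrane (ENSMUSG00000002944, chromosome 5, 17781690 to 17888801, minus strand, mm10). Its level was 426, 381, 403 and 341 FPKM in CTCF knockout libraries, 507, 649 and 675 FPKM in TAC libraries and 687, 699 and 691 FPKM in control libraries. The knockout libraries lay below all others, the 3 control libraries were close together, and TAC replicate 1 lay lowest of the TAC libraries. Cd36 fell in the knockout by 0.84 on the log2 scale (SE 0.13, limma adjusted p = 0.000948), and its log2 difference in TAC was -0.19 (adjusted p = 0.372). The difference between CTCF knockout and TAC itself was -0.65 (95% interval -0.92 to -0.37, adjusted p = 0.0206). That call ended without knockout replicate 3 (adjusted p = 0.0573), TAC replicate 2 (0.0866) or TAC replicate 3 (0.0684).

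Lpl encodes lipoprotein lipase, which frees fatty acids from lipoproteins at the capillary wall (ENSMUSG00000015568, chromosome 8, 68880491 to 68907448, plus strand). It was measured at 510, 702, 585 and 592 FPKM in CTCF knockout libraries, 1013, 1023 and 966 FPKM in TAC libraries and 1290, 1015 and 850 FPKM in control libraries. The knockout libraries lay below every TAC and control library, while TAC lay inside the range of the controls. Lpl fell in the knockout by 0.80 (adjusted p = 0.00391), and the TAC difference was -0.05 (adjusted p = 0.873). Against TAC the knockout was lower by 0.75 on the log2 scale (log2 difference -0.75, 95% interval -1.09 to -0.42, adjusted p = 0.0247), a call that ended without knockout replicate 1 or 3 or any 1 of the 3 TAC libraries, where adjusted p lay between 0.0570 and 0.0939.

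Slc27a1 encodes fatty acid transport protein 1 (ENSMUSG00000031808, chromosome 8). Its level was 19.4, 19.4, 18.6 and 15.2 FPKM in CTCF knockout libraries, 18.5, 18.2 and 25.2 FPKM in TAC libraries and 41.0, 38.5 and 25.4 FPKM in control libraries. Control replicate 3 and TAC replicate 3 lay almost level, and no knockout or TAC library reached the lowest control. Slc27a1 fell by 0.89 in the knockout (adjusted p = 0.00412) and by 0.72 in TAC (adjusted p = 0.0213), the TAC call ending without control replicate 1 or 2 or TAC replicate 1 or 2 (adjusted p from 0.0688 to 0.0745). The level of Slc27a1 is uncertain, because 22 other genes share stretches of up to 167 nt with its transcript at 95% identity or more.

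Fabp3 encodes the fatty acid binding protein of heart muscle cytosol (ENSMUSG00000028773, chromosome 4). It had the highest level per length of the 34 genes in every group, with 1916 ± 252 FPKM (SD, n = 4) in CTCF knockout, 2742 ± 482 FPKM (SD, n = 3) in TAC and 2397 ± 296 FPKM (SD, n = 3) in control libraries. The log2 difference was -0.33 in the knockout (adjusted p = 0.195) and 0.19 in TAC (adjusted p = 0.527). The 95% interval of the TAC difference ran from -0.20 to 0.57. A near-identical pseudogene, Fabp3-ps1, was listed at 279 FPKM, or 12.1% of the Fabp3 mean, so that the division of reads between them is uncertain.

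Activation, the joining of a fatty acid to CoA, is catalysed by acyl-CoA synthetases. Acsl1 (ENSMUSG00000018796, chromosome 8, 46471041 to 46536051, plus strand), the long-chain enzyme of mitochondria and endoplasmic reticulum, made up between 94.7% and 97.8% of the summed FPKM of the 4 synthetases in every library. Acsl1 had 185, 182, 206 and 149 FPKM in CTCF knockout libraries, 232, 252 and 263 FPKM in TAC libraries and 280, 305 and 291 FPKM in control libraries. The 3 groups did not overlap, with the knockout lowest and TAC between. Acsl1 fell in the knockout by 0.70 (adjusted p = 0.00196), while the TAC difference was -0.23 (adjusted p = 0.244).

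The minor synthetases did not follow Acsl1 as a block. Acsl5, which in liver and intestine takes part in lipid storage, was the 1 gene of the 34 that rose. Its level was low, at 3.14, 2.76, 2.101 and 3.27 FPKM in CTCF knockout libraries, 2.75, 2.38 and 2.51 FPKM in TAC libraries and 1.33, 1.79 and 2.05 FPKM in control libraries. Knockout replicate 3 and control replicate 3 came within 0.1 FPKM of each other. All knockout and TAC libraries lay above the controls and overlapped each other. The log2 fold change of Acsl5 was 0.49 in the knockout (adjusted p = 0.0259) and 0.39 in TAC (adjusted p = 0.0933). The knockout call ended without control replicate 1 or 2 or knockout replicate 1, 2 or 4 (adjusted p from 0.0556 to 0.0951), and Acsl5 shares 169 nt with Zdhhc6, so that its level is uncertain. Acsl3 averaged 1.91 ± 0.409 FPKM (SD, n = 4) in CTCF knockout, 1.93 ± 0.151 FPKM (SD, n = 3) in TAC and 3.15 ± 0.841 FPKM (SD, n = 3) in control libraries and fell in the knockout by 0.50 (adjusted p = 0.0393). That call of Acsl3 ended without control replicate 1 or 3, knockout replicate 2 or 3, or any 1 TAC library (adjusted p from 0.0509 to 0.145). Acsl4, which prefers arachidonic acid, had log2 differences of -0.07 and -0.16 in the knockout and in TAC, neither of which passed the test.

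In the carnitine shuttle 2 of 5 genes fell in the knockout and 2 of 5 in TAC. Crat, carnitine acetyltransferase, which exports surplus acetyl groups as acetylcarnitine (ENSMUSG00000026853, chromosome 2, 30400471 to 30415813, minus strand), had 90.9, 84.1, 94.6 and 76.8 FPKM in CTCF knockout libraries, 102, 106 and 105 FPKM in TAC libraries and 132, 154 and 150 FPKM in control libraries. The 3 groups were fully apart. Crat fell by 0.74 in the knockout (adjusted p = 0.000542) and by 0.47 in TAC (adjusted p = 0.0138), and without control replicate 2 the TAC call ended (adjusted p = 0.0511). Slc25a20, the carnitine-acylcarnitine carrier of the inner membrane, averaged 54.5 ± 7.08 FPKM (SD, n = 4) in CTCF knockout, 66.0 ± 8.94 FPKM (SD, n = 3) in TAC and 82.7 ± 9.84 FPKM (SD, n = 3) in control libraries. It fell in the knockout by 0.59 (adjusted p = 0.00988).

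Both carnitine palmitoyltransferases of the outer membrane missed the threshold in every comparison of the reported fit. Cpt1b, the muscle form and the step at which malonyl-CoA acts, had 214 ± 26.6 FPKM (SD, n = 4) in CTCF knockout, 284 ± 36.7 FPKM (SD, n = 3) in TAC and 275 ± 29.0 FPKM (SD, n = 3) in control libraries. Its log2 difference was -0.37 in the knockout (95% interval -0.66 to -0.07, adjusted p = 0.0780) and 0.04 in TAC (adjusted p = 0.878). Every knockout library lay below every control and every TAC library for Cpt1b. In 2 alternative settings limma called Cpt1b lower in the knockout. These were quantile normalization (adjusted p = 0.0146) and the sum of protein-coding transcripts only (adjusted p = 0.0366). Cpt1a, the liver form, had 8.72 ± 0.834 FPKM (SD, n = 4) in CTCF knockout, 7.61 ± 0.691 FPKM (SD, n = 3) in TAC and 8.68 ± 1.30 FPKM (SD, n = 3) in control libraries. The log2 difference of Cpt1a in the knockout was 0.01, with a 95% interval from -0.24 to 0.26. Cpt1b over Cpt1a was 20.7 to 30.7 in CTCF knockout, 35.7 to 39.2 in TAC and 25.9 to 37.5 in control libraries, so the knockout range lay below the TAC range and overlapped the controls. Chkb overlaps Cpt1b on the same strand, at a level of 8.74% of Cpt1b.

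Cpt2, the inner-membrane enzyme that turns acylcarnitine back to acyl-CoA, was called in TAC alone. Its level was 69.8, 62.3, 74.1 and 49.8 FPKM in CTCF knockout libraries, 50.4, 61.0 and 46.9 FPKM in TAC libraries and 69.8, 75.7 and 78.7 FPKM in control libraries. All TAC libraries lay below the controls, while knockout replicate 1 lay level with the lowest control and knockout replicate 3 among the controls. Cpt2 fell in TAC by 0.50 (adjusted p = 0.0439), a call that ended without any 1 control library, without knockout replicate 1 or 2, or without TAC replicate 1 or 3 (adjusted p from 0.0543 to 0.138). The direct difference of the knockout from TAC was 0.27 (95% interval -0.04 to 0.58, adjusted p = 0.351), so the difference between these groups did not pass the test.

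The acyl-CoA dehydrogenases open each cycle, and the enzymes differ in the chain length they accept. Acadvl, the very long-chain enzyme (ENSMUSG00000018574, chromosome 11, 70010183 to 70015411, minus strand), had 291, 257, 290 and 218 FPKM in CTCF knockout libraries, 313, 375 and 393 FPKM in TAC libraries and 405, 473 and 421 FPKM in control libraries. Knockout, TAC and control libraries followed each other without overlap. Acadvl fell in the knockout by 0.72 (adjusted p = 0.00322), and the TAC difference was -0.27 (adjusted p = 0.231).

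Acadl, the long-chain enzyme (ENSMUSG00000026003, chromosome 1, 66830839 to 66863277, minus strand), had 109, 172, 136 and 148 FPKM in CTCF knockout libraries, 265, 217 and 207 FPKM in TAC libraries and 270, 211 and 197 FPKM in control libraries. The knockout lay apart from both other groups, which overlapped. Acadl fell in the knockout by 0.68 (adjusted p = 0.0138, and 0.0538 without control replicate 1), and its TAC difference was 0.03 (adjusted p = 0.938). Between CTCF knockout and TAC the log2 difference was -0.71 (95% interval -1.07 to -0.35, adjusted p = 0.0428). That call ended without control replicate 2, knockout replicate 1, 3 or 4 or any 1 TAC library (adjusted p from 0.0616 to 0.136).

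Acadm, the medium-chain enzyme (ENSMUSG00000062908, chromosome 3, 153922357 to 153944632, minus strand), fell in both comparisons with control. Its level was 533, 433, 488 and 397 FPKM in CTCF knockout libraries, 365, 506 and 528 FPKM in TAC libraries and 599, 718 and 790 FPKM in control libraries. All 7 knockout and TAC libraries lay below the 3 controls and overlapped each other. Acadm fell by 0.60 in the knockout (adjusted p = 0.0221) and by 0.60 in TAC (adjusted p = 0.0366). Without control replicate 2 or 3 or knockout replicate 2 or 4 the knockout call of Acadm ended (adjusted p from 0.0530 to 0.0826), and the TAC call ended without control replicate 2 or 3, knockout replicate 2 or 3 or TAC replicate 1 or 2 (0.0512 to 0.119).

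The remaining dehydrogenases were lower in level or did not pass the test. Acad10 fell by 0.33 in the knockout and by 0.39 in TAC (adjusted p = 0.0296 and 0.0248), with 2.89, 2.43, 2.87 and 2.58 FPKM in CTCF knockout, 2.37, 2.67 and 2.60 FPKM in TAC and 3.88, 3.59 and 3.43 FPKM in control libraries. Every knockout and TAC library lay below every control, but Acad10 shares 579 nt with Acad12, listed at 22.3 FPKM, and its own level is uncertain. Its calls ended without control replicate 1 or 2 or knockout replicate 2 or 4 (adjusted p from 0.0671 to 0.0946) and, in TAC, without control replicate 1 or 2 or TAC replicate 1 or 3 (0.0559 to 0.0802). Acads, the short-chain enzyme, had log2 differences of -0.12 (95% interval -0.33 to 0.10) in the knockout and -0.07 in TAC. For Acad9, which also serves in the assembly of respiratory complex I, they were 0.04 and -0.06, and an overlapping RNA, Gm43079, was listed at 53.8% of its level. Acad11 had -0.30 (adjusted p = 0.0917) and -0.20 (adjusted p = 0.299).

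Promoter stretches of 2 of the dehydrogenases and of 3 further genes are shown for the letters AGGTCA, the core motif read by nuclear receptors such as the PPAR and ERR families, which are known to act on fatty acid oxidation genes. RefSeq promoter windows of the GRCm38.p6 build, 250 bases before to 50 after a start, were at hand for 28 of the 34 genes in 31 windows. Searched on both strands, the 6 letters occurred in windows of 6 genes, and in 16.3% of all 32851 windows. In the following stretches, read 5′ to 3′ on the strand of the gene, capitals mark the core motif or its reverse complement TGACCT.
Acadm, chr3:153944875-153944893, minus strand: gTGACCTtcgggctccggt
Acadvl, chr11:70015498-70015527, minus strand: atggatcaccctAGGTCAggtagaatacag
Echs1, chr7:140116487-140116516, minus strand: accagcccgctcAGGTCAcgggtccacccc
Cpt1a, chr19:3323195-3323224, plus strand: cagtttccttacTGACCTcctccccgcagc
Cd36, chr5:17836107-17836136, minus strand: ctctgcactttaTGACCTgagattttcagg
In Acacb the letters lie after the start and are not printed. Of these 6 genes, 5 fell in the knockout and Cpt1a did not pass the test, and of the 22 genes whose windows lack the letters 15 fell. No link between the letters and the change was tested. A tandem pair of the motif with 1 base between (AGGTCANAGGTCA) occurred in 0 of the 31 windows and 0.0396% of all windows, and the longer TCAAGGTCA in 0 of the 31 and 0.423% of all. A match is a run of letters and not a measured binding site, and the absence of one says only that these letters are not in this window.

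The largest fall of the 34 genes in the knockout was that of Acaa2. Acaa2, the mitochondrial 3-ketoacyl-CoA thiolase that releases acetyl-CoA at the end of a cycle (ENSMUSG00000036880, chromosome 18, 74779197 to 74806207, plus strand), had 189, 163, 190 and 133 FPKM in CTCF knockout libraries, 191, 214 and 262 FPKM in TAC libraries and 381, 476 and 432 FPKM in control libraries. All 7 knockout and TAC libraries lay well below the 3 controls, and TAC replicate 1 came close to knockout replicates 1 and 3. Acaa2 fell by 1.35 in the knockout (SE 0.15, adjusted p = 0.000184) and by 0.95 in TAC (SE 0.16, adjusted p = 0.00303). The knockout stood at 39.3% and TAC at 51.7% of the control mean, and both calls of Acaa2 remained in each of the 22 alternative settings.

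Hadh, the short- and medium-chain hydroxyacyl-CoA dehydrogenase (ENSMUSG00000027984, chromosome 3, 131233419 to 131272101, minus strand), had 142, 115, 133 and 114 FPKM in CTCF knockout libraries, 143, 162 and 162 FPKM in TAC libraries and 206, 241 and 258 FPKM in control libraries. The groups followed each other without overlap. Hadh fell by 0.89 in the knockout (adjusted p = 0.000436) and by 0.59 in TAC (adjusted p = 0.00995). Echs1, the short-chain enoyl-CoA hydratase, fell by 0.55 in the knockout (adjusted p = 0.00680) and had a log2 difference of -0.33 in TAC (adjusted p = 0.0999).

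Hadha and Hadhb encode the alpha and beta subunits of the mitochondrial trifunctional protein, which carries out the last 3 reactions on long chains. They are neighbours on chromosome 5 (30118304 to 30155162, minus strand, and 30155248 to 30184593, plus strand) and are transcribed away from each other. The 85 bases between their outermost annotated starts are shown because both genes moved together, although 24 of the 34 genes fell in the knockout. The leading transcript of Hadha starts within 4 bases of its RefSeq start at position 30154980, so the stretch lies upstream of that start without reaching it. Capitals mark the GC box GGGCGG, which occurred in 35.7% of all promoter windows on either strand. Those windows, from 250 bases before to 50 after a start, are longer than this stretch and placed differently. This motif was searched after the data had been seen.
Hadha to Hadhb, chr5:30155163-30155247, plus strand: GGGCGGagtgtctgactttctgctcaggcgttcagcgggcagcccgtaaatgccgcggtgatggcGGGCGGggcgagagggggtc
The stretch holds 2 GC boxes, 69.4% of its bases are G or C, and it comes from RefSeq sequence of GRCm38.p6. Hadha had 378, 360, 380 and 301 FPKM in CTCF knockout libraries, 342, 406 and 410 FPKM in TAC libraries and 501, 543 and 542 FPKM in control libraries. Hadhb had 666, 578, 648 and 480 FPKM in CTCF knockout libraries, 522, 672 and 689 FPKM in TAC libraries and 862, 968 and 938 FPKM in control libraries. In both genes, knockout and TAC libraries overlapped each other and lay below all controls, and knockout replicate 4 and TAC replicate 1 were lowest in their groups.

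Hadha fell by 0.58 in the knockout (adjusted p = 0.00550) and by 0.46 in TAC (adjusted p = 0.0316), and Hadhb by 0.65 (adjusted p = 0.00936) and 0.56 (adjusted p = 0.0309). Without control replicate 2 or 3 or TAC replicate 1 or 2 the TAC calls of both genes ended (adjusted p from 0.0544 to 0.103 for Hadha and from 0.0504 to 0.104 for Hadhb). Hadhb over Hadha lay between 1.59 and 1.77 in CTCF knockout, between 1.52 and 1.68 in TAC and between 1.72 and 1.78 in control libraries. The TAC range of this ratio lay below the control range, and the knockout range overlapped both.

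**Figure D3:**
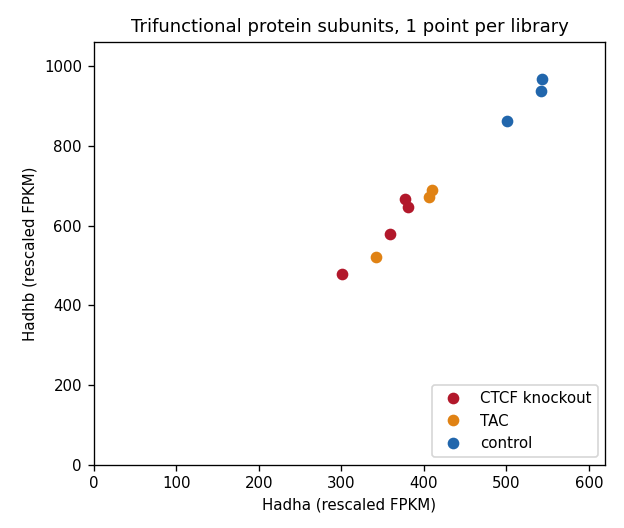
Level of Hadhb against level of Hadha in each of the 10 libraries, in rescaled FPKM, with CTCF knockout, TAC and control libraries in different colours. The points lie along a line with Hadhb at 1.52 to 1.78 times Hadha, and the 3 control libraries lie at the upper end.

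The auxiliary enzymes prepare unsaturated fatty acids for the cycle and, as a step, had the lowest sums relative to control, with 47.0% of the control mean in the knockout and 56.5% in TAC. Ech1, the dienoyl-CoA isomerase (ENSMUSG00000053898, chromosome 7, 28825217 to 28832247, plus strand), had 437, 324, 401 and 313 FPKM in CTCF knockout libraries, 375, 474 and 494 FPKM in TAC libraries and 829, 942 and 921 FPKM in control libraries. The highest knockout or TAC library was TAC replicate 3, far below the lowest control. Ech1 fell by 1.29 in the knockout (SE 0.15, adjusted p = 0.000186) and by 1.01 in TAC (SE 0.16, adjusted p = 0.00171), and both calls of Ech1 remained in all 22 alternative settings. Its log2 difference between CTCF knockout and TAC was -0.28 (95% interval -0.60 to 0.04, adjusted p = 0.347).

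Decr1, the 2,4-dienoyl-CoA reductase (ENSMUSG00000028223, chromosome 4, 15917240 to 15945507, minus strand), had 69.1, 65.9, 66.6 and 51.8 FPKM in CTCF knockout libraries, 71.2, 77.8 and 89.1 FPKM in TAC libraries and 109, 129 and 119 FPKM in control libraries. The groups did not overlap, and knockout replicate 4 lay well below the other 3 knockout libraries. Decr1 fell by 0.90 in the knockout (adjusted p = 0.000542) and by 0.58 in TAC (adjusted p = 0.0128).

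The enoyl-CoA isomerases Eci1 and Eci2, which shift a double bond into the position the cycle accepts, both fell in the knockout. Eci1 averaged 99.4 ± 14.1 FPKM (SD, n = 4) in CTCF knockout, 115 ± 16.7 FPKM (SD, n = 3) in TAC and 162 ± 14.9 FPKM (SD, n = 3) in control libraries, with a log2 fold change of -0.71 in the knockout (adjusted p = 0.00424) and -0.50 in TAC (adjusted p = 0.0416). The TAC call of Eci1 ended without any 1 control library, knockout replicate 1 or 2 or TAC replicate 1 or 2 (adjusted p from 0.0502 to 0.128). Eci2 averaged 60.6 ± 7.86 FPKM (SD, n = 4) in CTCF knockout, 69.4 ± 9.004 FPKM (SD, n = 3) in TAC and 82.1 ± 6.91 FPKM (SD, n = 3) in control libraries. It fell in the knockout by 0.44 (adjusted p = 0.0332), a call that ended without control replicate 2 or 3 or knockout replicate 3 or 4 (0.0527 to 0.109), and its TAC difference was -0.24 (adjusted p = 0.266).

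Electron transfer flavoprotein takes electrons from the acyl-CoA dehydrogenases, and its oxidoreductase Etfdh hands them to ubiquinone. Etfb, the beta subunit (ENSMUSG00000004610, chromosome 7, 43444108 to 43457800, plus strand), had 274, 248, 268 and 206 FPKM in CTCF knockout libraries, 245, 271 and 274 FPKM in TAC libraries and 347, 415 and 400 FPKM in control libraries. Knockout and TAC overlapped and lay below all controls. Etfb fell by 0.64 in the knockout (adjusted p = 0.00404) and by 0.55 in TAC (adjusted p = 0.0155), and the TAC call ended without control replicate 2 (adjusted p = 0.0562) or TAC replicate 1 (0.0531).

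Etfa, the alpha subunit (ENSMUSG00000032314, chromosome 9), varied more between libraries. It had 59.0, 95.8, 72.9 and 78.7 FPKM in CTCF knockout libraries, 151, 90.9 and 93.7 FPKM in TAC libraries and 156, 126 and 103 FPKM in control libraries. TAC replicate 1 and control replicate 1 were the highest, and TAC replicates 2 and 3 lay among the knockout libraries. Etfa fell in the knockout by 0.74 (adjusted p = 0.0286), and its TAC difference was -0.22 (95% interval -0.71 to 0.27, adjusted p = 0.563). The subunits thus did not keep a fixed ratio, with Etfb over Etfa from 2.59 to 4.65 in CTCF knockout, 1.63 to 2.98 in TAC and 2.23 to 3.88 in control libraries. Etfdh fell in the knockout by 0.46 (adjusted p = 0.0299) and had a log2 difference of -0.31 in TAC (adjusted p = 0.166). The knockout call of Etfa ended without control replicate 1 or 2 or knockout replicate 1 or 3 (adjusted p from 0.0608 to 0.105), and that of Etfdh without control replicate 2 or 3 or knockout replicate 2 or 4 (0.0552 to 0.0983).

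Malonyl-CoA, which inhibits the carnitine palmitoyltransferase of the outer membrane, is made by Acacb and removed by Mlycd. Acacb, the acetyl-CoA carboxylase of the mitochondrial surface (ENSMUSG00000042010, chromosome 5, 114146535 to 114250761, plus strand), had 39.9, 48.2, 43.7 and 43.5 FPKM in CTCF knockout libraries, 54.0, 55.7 and 47.6 FPKM in TAC libraries and 68.9, 56.8 and 50.4 FPKM in control libraries. The knockout lay below the controls, its replicate 2 lay just above TAC replicate 3, and TAC overlapped the controls. Acacb fell in the knockout by 0.40 (adjusted p = 0.0326), a call that ended without control replicate 1 or 2 or knockout replicate 1, 3 or 4 (adjusted p from 0.0638 to 0.118). Mlycd, malonyl-CoA decarboxylase, had 25.8 ± 4.11 FPKM (SD, n = 4) in CTCF knockout, 30.0 ± 2.25 FPKM (SD, n = 3) in TAC and 32.7 ± 2.98 FPKM (SD, n = 3) in control libraries. Its log2 difference was -0.34 in the knockout (adjusted p = 0.0870) and -0.12 in TAC (adjusted p = 0.605), so neither passed the test.

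**Figure D4:**
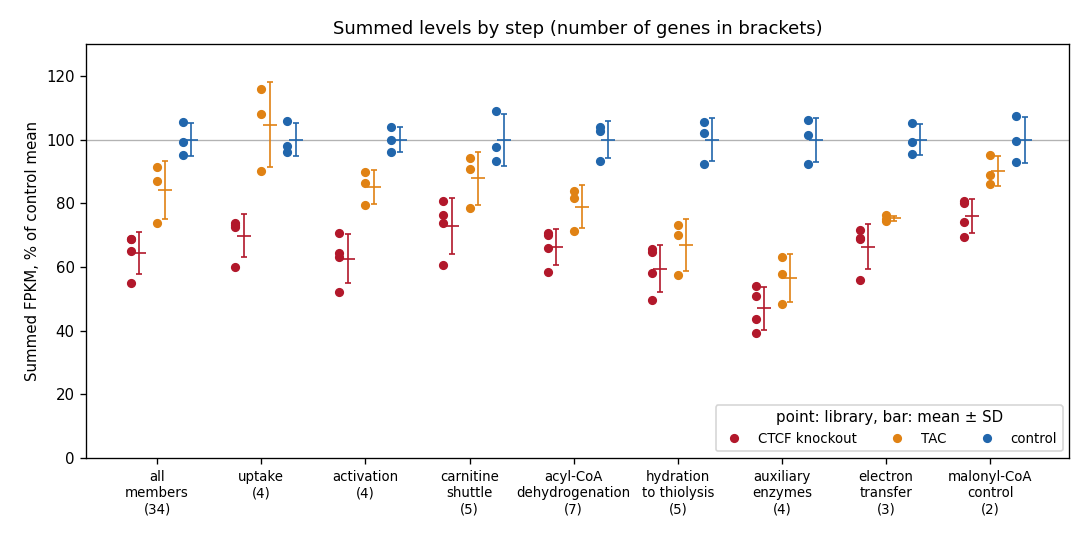
Summed FPKM of each step in each library as a percentage of the control mean, for all 34 genes and for the 8 steps, with the number of genes in brackets. Points are libraries and bars are means with SD, with CTCF knockout left of TAC and control. The knockout mean runs from 47.0% of control (auxiliary enzymes) to 76.2% (malonyl-CoA control) and the TAC mean from 56.5% (auxiliary enzymes) to 104.7% (uptake).

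Set side by side, the steps ran in a different order in the knockout and in TAC. The sums of activation, the carnitine shuttle and dehydrogenation stood at 62.6%, 72.9% and 66.3% of the control mean in the knockout and at 85.3%, 87.8% and 78.96% in TAC. Hydration to thiolysis and electron transfer stood at 59.5% and 66.4% in the knockout and at 66.9% and 75.3% in TAC. The difference between the steps was not tested, and each sum is weighted towards its most abundant gene, such as Fabp3 in uptake.

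Levels also varied between libraries of 1 group in a shared way. Knockout replicate 4 was the lowest of its group for 25 of the 34 genes and TAC replicate 1 for 25, and control replicate 1 was the lowest control for 23. Some genes ran the other way in those libraries. In TAC replicate 1, Acsl5, Acadl and Etfa were the highest of the group, and in control replicate 1 so were Lpl, Slc27a1, Acsl4, Cpt1a, Acadl, Acad10, Etfa and Acacb. The count of genes lower in TAC was 5 without TAC replicate 1, 5 without control replicate 2, 8 without control replicate 3 and 8 without TAC replicate 2, against 13 with all libraries. The count lower in the knockout stayed between 18 and 23 when any 1 library was left out, against 24.

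The deposited values divide each gene over its annotated transcripts, which is an estimate by the authors' program and is described here without a test. Only Cd36, Lpl and Acsl1 are described. How often the shares of groups part without overlap among all genes was not computed. Cd36 has several starts. Cd36-206 (ENSMUST00000197890), whose start at position 17835717 lies inside the gene, took 14.7%, 19.7%, 18.3% and 15.3% of the Cd36 FPKM in CTCF knockout libraries, 14.4%, 16.1% and 15.9% in TAC libraries and 7.86%, 8.26% and 7.13% in control libraries. All 7 knockout and TAC shares lay above the controls. Cd36-202 went the other way, with 7.23% to 11.5% in CTCF knockout, 8.88% to 11.6% in TAC and 13.7% to 14.4% in control libraries. The short transcript Cd36-205 (702 nt) took 27.2% to 30.7% in CTCF knockout, 24.9% to 30.1% in TAC and 22.8% to 25.5% in control libraries. The leading transcript Cd36-203, which starts at position 17888747, took 39.9 ± 1.41% in CTCF knockout, 41.7 ± 3.29% in TAC and 45.6 ± 0.822% in control libraries (SD, n = 4, 3 and 3). In FPKM, Cd36-206 stood at 65.9 ± 10.8 in CTCF knockout, 95.03 ± 18.9 in TAC and 53.7 ± 4.24 in control libraries, and Cd36-203 at 155 ± 14.5 in CTCF knockout, 256 ± 52.2 in TAC and 316 ± 3.78 in control libraries. The RefSeq start behind the Cd36 promoter stretch printed above lies 179 bases from the start of Cd36-206.

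Lpl was divided over 2 main transcripts that have the same 9 coding exons and differ outside them, ending at positions 68906934 and 68907448. Lpl-201 (ENSMUST00000015712) took 59.5%, 55.6%, 54.0% and 57.8% of Lpl in CTCF knockout libraries, 58.5%, 48.9% and 54.8% in TAC libraries and 70.6%, 66.7% and 78.5% in control libraries. Lpl-203 (ENSMUST00000168401), which the annotation types as a target of nonsense-mediated decay, took 42.7 ± 2.48% in CTCF knockout, 45.4 ± 4.93% in TAC and 27.3 ± 5.81% in control libraries (SD, n = 4, 3 and 3). The shares of the control libraries did not overlap those of either other group. When protein-coding transcripts alone were summed, the TAC difference of Lpl was -0.47 (adjusted p = 0.0626), against -0.05 over all transcripts, so the value of Lpl in TAC depends on how its transcripts are counted.

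Acsl1 showed a like division over its starts. Acsl1-201 took 52.2 ± 2.95% of the gene in CTCF knockout, 50.6 ± 3.39% in TAC and 61.1 ± 3.36% in control libraries, and Acsl1-203, which begins further downstream, took 38.7 ± 2.95% in CTCF knockout, 36.8 ± 2.00% in TAC and 31.9 ± 1.92% in control libraries (SD, n = 4, 3 and 3). In FPKM, Acsl1-201 stood at 93.9 ± 9.60 in CTCF knockout, 126 ± 13.9 in TAC and 178 ± 11.2 in control libraries, while Acsl1-203 stood at 70.4 ± 14.3 in CTCF knockout, 91.7 ± 9.76 in TAC and 93.4 ± 9.34 in control libraries.

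**Figure D5:**
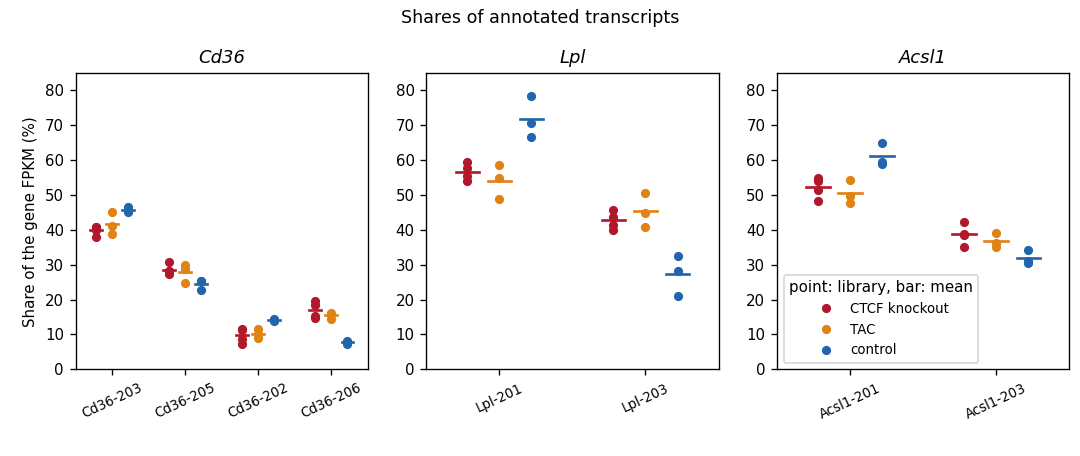
Share of each gene's FPKM held by its annotated transcripts, in percent, for Cd36, Lpl and Acsl1. Points are libraries and bars are group means, with CTCF knockout left of TAC and control. The 7 knockout and TAC libraries lie above the control libraries for Cd36-206 and Lpl-203 and below them for Cd36-202, Lpl-201 and Acsl1-201.

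Related genes outside the 34 were read from lists of the same metabolism. The first list held 20 tested genes, mostly mitochondrial acyl-CoA enzymes and proteins related to them, many in the breakdown of branched-chain amino acids. Of these 20, 11 fell in the knockout and 5 in TAC, where 10.2% and 7.37% of all genes tested were called lower. They included Hsdl2 (log2 fold change -0.81 in the knockout, adjusted p = 0.000793, and -0.54 in TAC, adjusted p = 0.0144), the glutaryl-CoA dehydrogenase Gcdh (-0.71, adjusted p = 0.00123, and -0.61, adjusted p = 0.00596) and Etfbkmt, a methyltransferase of the electron transfer flavoprotein beta subunit (-1.14, adjusted p = 0.00248, and -0.93, adjusted p = 0.0137). Of 16 genes of peroxisomal beta-oxidation, 2 fell in the knockout (Abcd3, -0.56, adjusted p = 0.00299, and Phyh, -0.54, adjusted p = 0.00484) and 1 in TAC (Abcd3), shares near those of all genes tested. The median log2 fold change of the peroxisomal list was -0.03 in the knockout and -0.10 in TAC, against -0.39 and -0.23 for the first, mostly mitochondrial list. The difference between the lists was not tested.

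Of 11 other genes of fatty acid uptake and binding, 3 fell in the knockout, against 10.2% of all genes tested. By limma 0 were called in TAC, where 2 were lower and 1 higher at an unadjusted p under 0.05. The share of all genes at that unadjusted threshold was not computed. The synthetase Acsl6 averaged 1.32 ± 0.199 FPKM (SD, n = 4) in CTCF knockout, 3.55 ± 0.649 FPKM (SD, n = 3) in TAC and 5.10 ± 0.606 FPKM (SD, n = 3) in control libraries. Acsl6 fell by 1.40 in the knockout (adjusted p = 4.70e-05) and was also lower there than in TAC (log2 difference -0.97, adjusted p = 0.00344). Vldlr, the receptor for very low-density lipoprotein, fell by 0.55 (adjusted p = 0.00366) and the carnitine importer Slc22a5 by 0.55 (adjusted p = 0.0122).

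Genes of malonyl-CoA and AMPK control, the kinase that inhibits Acacb, moved in both directions. Of 13 tested, 4 rose in the knockout (Prkag1, Prkag2, Prkag3 and Prkab2) and Mid1ip1 fell, while 2 rose and 2 fell in TAC. Among all genes tested 10.6% were called higher in the knockout and 8.08% in TAC. Prkag2, a regulatory AMPK subunit, had 11.6 ± 1.68 FPKM (SD, n = 4) in CTCF knockout, 9.68 ± 1.26 FPKM (SD, n = 3) in TAC and 4.36 ± 0.358 FPKM (SD, n = 3) in control libraries. Prkag2 rose by 1.23 on the log2 scale in the knockout (adjusted p = 9.26e-05) and by 0.99 in TAC (adjusted p = 0.000739).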

How the data were processed

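RNA of isolated cardiac myocytes was sequenced as stranded paired-end libraries, per the labels' protocols, which describe removal of ribosomal RNA while the molecule label reads polyA RNA. Build mm10 and the tools Cufflinks 2.2.1, Cuffdiff, Bowtie2 and TopHat2 2.1.0 are named, without roles, in the submitters' processing notes. The deposited files list an FPKM value per transcript, made by the authors with Cufflinks and normalized for length and library size, and a Cufflinks score, which was not used here. No read counts are in the files analysed, so no counting error was computed. The listed 95% interval of the leading transcript, a measure of estimation error alone, had a median half-width of 4.98% of its level (2.38% to 60.1% over the 34 genes, highest in Acad10). 

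FPKM was summed by gene ID (45882) and rescaled by the median of ratios (factors 0.912 to 1.10). Left out were 22 gene IDs at 0 in at least 1 library whose median elsewhere reached 100 FPKM, and those whose transcripts are all shorter than 300 nt. Genes with a mean of at least 1 FPKM (11358) entered 1 limma fit (version 3.58.1, R 4.3.3) of log2(FPKM + 1) over the 10 libraries, with a variance trend. P-values are two-sided and adjusted by Benjamini-Hochberg over all tested genes. The fit was also run on simulated data with independent noise and no rescaling, unlike the fit reported here, and the outcome is not given. Each library carries its own mouse number and was taken as a replicate.

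The members, steps and 12 lists were chosen with earlier results of these data known. All 34 members are named, with every library given for the member of smallest adjusted p in each step, for members called higher or called between CTCF knockout and TAC, and for further members described; of other lists at most 4 genes by smallest adjusted p are given with values, and other names are listed where they make up a small count. Alternatives changed the pseudocount, filter, rescaling, variance model, transcripts summed, samples in the fit, sex, replicate block and each library. Near-identical stretches (at least 100 nt at 95% identity or more) were sought with blastn 2.17.0 in GENCODE transcripts of GRCm38, and occurred in 12 of the 34 members.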

Additional observations from a re-analysis of the deposited data

Results flagged for a closer look

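Eci2 and Decr1, both auxiliary enzymes, had 1 CTCF knockout library far from the other 3. In knockout replicate 4 the level of Eci2 was 48.9 FPKM, against 63.4 to 66.0 FPKM in the other knockout libraries, a gap of 0.862 of the whole range of the group on the log2(FPKM + 1) scale and 0.844 in FPKM. Decr1 stood at 51.8 FPKM in the same library, against 65.9 to 69.1 FPKM in the others, a gap of 0.836 of the range on the log2 scale and 0.815 in FPKM. The critical value of Dixon's test at the 95% level for 4 libraries is exceeded by chance alone in about 1 of 20 groups. On the log2 scale both genes exceeded it, 2 of the 34 members, and in FPKM Eci2 alone did so. Without knockout replicate 4 the knockout call of Eci2 ended (adjusted p = 0.0706) and that of Decr1 remained.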

How the results depend on the processing

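Over 22 alternative settings, 12 of 25 calls in CTCF knockout against control, 2 of 13 in TAC against control (Acaa2 and Ech1) and 0 of 3 between CTCF knockout and TAC held in every setting that could be fitted, and no called gene changed sign. The knockout count of lower genes (24) was 14 with no rescaling and 18 to 23 when libraries were left out one at a time. Its 1 higher gene, Acsl5, became 0 with no filter, with a mean of at least 5 FPKM (where Acsl5 was not tested), with the replicate block and without some libraries (0 to 1). The TAC count (13) was 7 with no filter, 3 with no rescaling, 7 with sex as a covariate, 6 with only the 2 groups compared, 18 with quantile normalization and 5 to 13 without single libraries. Genes lower in both comparisons, which share the controls (12), were 7, 3 and 7 in the same first 3 settings and 5 to 11 without single libraries. The share of all genes tested that were lower in both was not computed. Between knockout and TAC the 3 lower genes became 0 with no filter, 1 with sex, 0 with the replicate block and 0 to 3 without single libraries. The block also gave 17 lower genes in the knockout and 12 in TAC. Of 9 pairs of same-numbered libraries, 4 correlated above 0.1 (-0.36 to 0.33). These correlations are too few to decide whether same-numbered libraries share more than a number. Without rescaling, the median of all genes moved to 0.10 in the knockout (from -0.01), and lower genes made up 26.5% of all calls in the knockout (49.1% as reported), 33.6% in TAC (47.7%) and 36.1% between knockout and TAC (51.9%; 42.2% with quantile normalization). The median of the 34 genes was then -0.46. The cause of the other shifts was not tested. With unknown depth, no counting error could be given.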
